A study of Mus musculus with 12 samples.

Results

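The genes described here encode the proteins that modify, fold, trim and crosslink collagen on its way from the endoplasmic reticulum (ER) to the bone matrix. The 32 genes, of 32288 entries in the count table, were chosen by name from their known roles, with earlier results of these data known. They fall into 8 roles: 4 prolyl 4-hydroxylase subunits, 3 lysyl hydroxylases, 6 genes of prolyl 3-hydroxylation, 3 chaperones and isomerases, 2 galactosyltransferases, 2 genes of ER export and ER calcium, 7 genes of propeptide removal and 5 lysyl oxidases.

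Bulk RNA-seq libraries were made from mGFP+ cells of the metaphysis, the growing end of the shaft of long bones. The 4 juvenile and 4 adult libraries came from male *Osx-CreERT2*; *mTmG* mice at 3 and 8 weeks of age, with 2 mice pooled for each library. All groups carry *Osx-CreERT2* and *mTmG* and received tamoxifen, which turns on GFP in cells that express *Osx*, the osteoblast transcription factor gene also called *Sp7*. The 2 *c-Myc* libraries came from mice that in addition carry *LSL-tTA* and *Col1a1::TetO–c-Myc*, a *c-Myc* transgene placed at the *Col1a1* locus, and the 2 *c-Myc* + *R172H* libraries from mice that also carry *Trp53-LSL-R172H*, a mutant p53 allele. The induced groups are titled 3 weeks, and their age at dissection was taken here as 5 weeks, which is uncertain. The age given for induction and the interval to collection point to a younger age than the dissection protocol does. Cells were collected 7 days after 2 daily tamoxifen treatments rather than 2 days after 3. The shaft was trimmed at 5 mm rather than 2 mm from the growth plate. The paper's cell preparation methods give both sexes for the induced groups, while other statements of the study name males only for RNA-seq, so sex may also differ. The paper's methods also name doxycycline or tetracycline in the drinking water of inducible mice or pregnant females, stopped before analysis. These differences go with *c-Myc* induction and cannot be told apart from it.

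Total counts ranged from 9066154 to 15684412 per library. *Myc* was at 39.8 to 52.2 CPM (counts scaled to a common library size with TMM factors) in the 8 control libraries and at 624 to 748 CPM in the 4 induced libraries. Counts per gene do not show the *R172H* mutation, and *Trp53* was at 56.0 to 65.3 CPM in both induced groups against 20.0 to 26.1 CPM in controls. *Sp7* was at 227 to 246 CPM in juvenile, 141 to 193 CPM in adult, 122 to 152 CPM in *c-Myc* and 119 to 123 CPM in *c-Myc* + *R172H* libraries. Its log2 fold change was 0.43 ± 0.12 (adjusted p = 0.04996) for juvenile over adult, and -0.81 ± 0.10 and -0.97 ± 0.10 for the induced groups over juvenile, below the 2-fold limit. The summed level of 12 chondrocyte markers was 9030 to 26981 CPM in juvenile, 35431 to 129934 CPM in adult, 355 to 571 CPM in *c-Myc* and 166 to 173 CPM in *c-Myc* + *R172H* libraries, and all 12 had more than 3 counts in at least 1 library of every group. Growth plate remnants had been dissected away under a stereomicroscope. Tendon and ligament markers summed to 350 to 414 CPM in juvenile, 717 to 1852 CPM in adult and 109 to 119 CPM in induced libraries. Endothelial, haematopoietic and skeletal muscle marker lists each summed to under 10 CPM in every library. In bulk samples, fewer cells of a type and less RNA per cell cannot be told apart.

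As background, procollagen chains are hydroxylated on proline and lysine while still in the ER, and hydroxyproline keeps the triple helix stable at body temperature. Some hydroxylysines receive galactose, chaperones hold the helix, and large cargo carriers take it out of the ER. Outside the cell the N- and C-terminal propeptides are removed, and lysyl oxidases then oxidize lysine and hydroxylysine so that neighbouring molecules become crosslinked. Defects in several of these genes, among them *Crtap*, *P3h1*, *Ppib*, *Fkbp10*, *Serpinh1*, *Bmp1*, *Plod2* and *Tmem38b*, cause brittle bone disease.

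Per kb of exon, the chaperone gene *Serpinh1* (HSP47, chromosome 7, 99345376-99353239 on GRCm38, minus strand) was the highest member in all 4 groups, at 1436 ± 322 CPM per kb (SD, n = 4) in juvenile libraries. The next in juvenile libraries were *P4hb* at 404 ± 8.3, the isomerase gene *Fkbp10* at 342 ± 11.6, *Lox* at 311 ± 21.5 and the C-propeptide enhancer gene *Pcolce* at 254 ± 10.5 CPM per kb. The machinery was expressed far below its substrate, since *Col1a1* stood at 73953 ± 12577 CPM per kb. *P4ha3*, at 1.44 ± 0.72, and *Tmem38b*, at 1.49 ± 0.19 CPM per kb, were the lowest members that were tested. *Tll1*, a tolloid-like C-proteinase gene, was too low to test. It had 0, 5, 0 and 7 counts in the juvenile, 7 to 13 counts in the adult and 0 counts in each of the 4 induced libraries, where 3 counts correspond to 0.137 to 0.170 CPM.

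**Figure D1:**
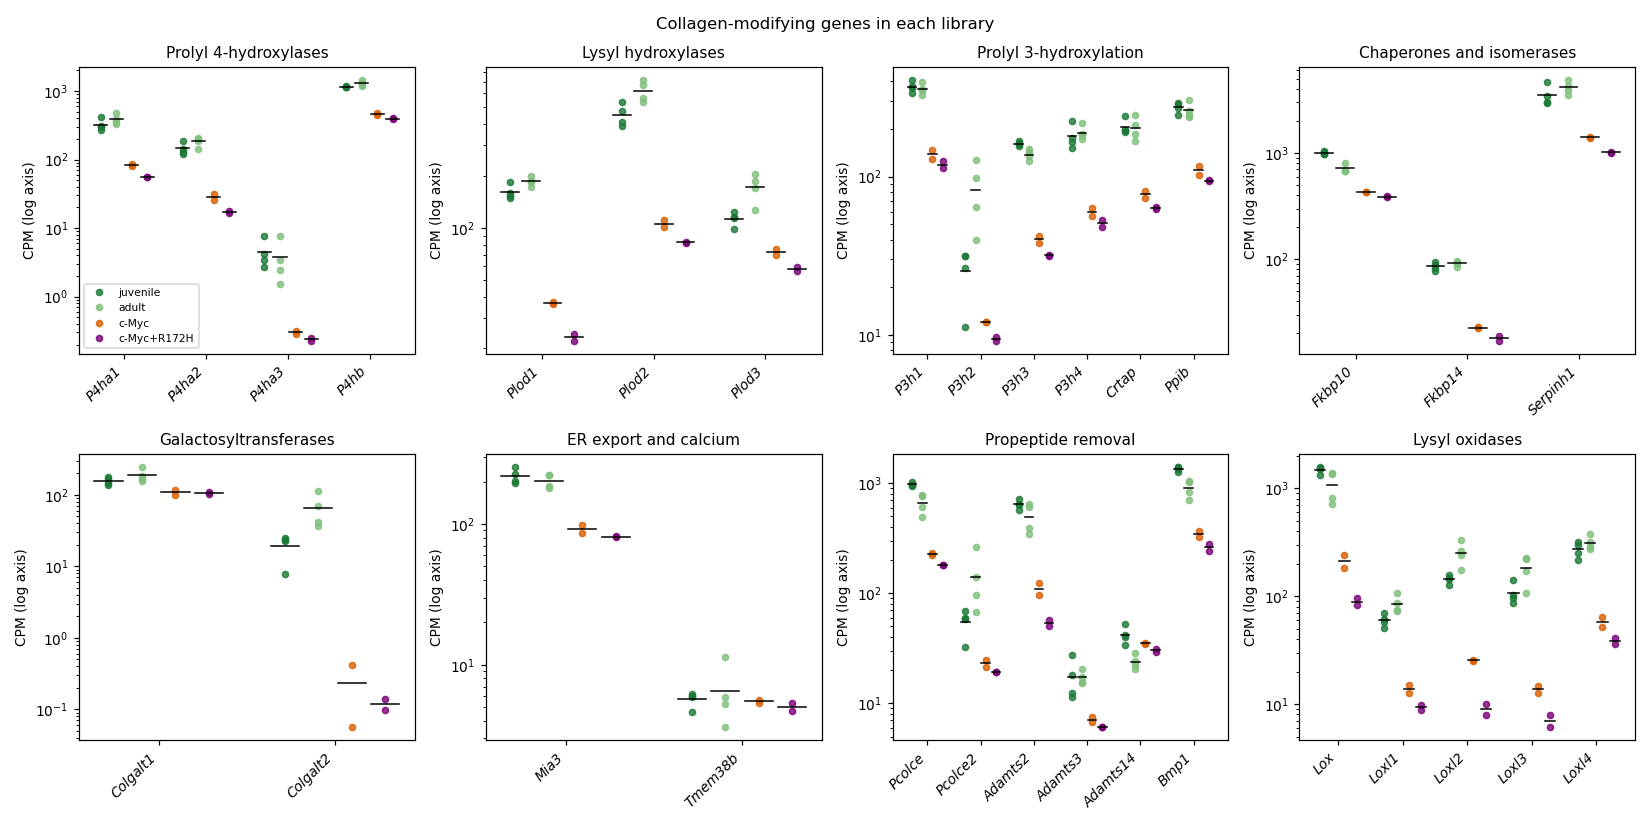
Each point is the CPM of a gene in a library on a log axis, in a panel for each role, with black lines at group means; *Tll1* is left out because of its zeros. In 27 of the 31 genes shown the *c-Myc* libraries were called lower than the juvenile libraries, and *Plod3*, *Colgalt1*, *Tmem38b* and *Adamts14* were not called. The *c-Myc* and juvenile values overlap in *Tmem38b*, *Adamts14* and *P3h2*, of which *P3h2* was called lower.

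Prolyl 4-hydroxylase is an assembly of alpha subunits (*P4ha1*, *P4ha2* or *P4ha3*) and the beta subunit *P4hb*, also known as protein disulfide isomerase. As it is the role in which every member has an entry in the promoter table used, the 250 bases before each start are shown (RefSeq, GRCm38.p6, 5′ to 3′ on the gene's strand), at chr10:59323046-59323295, chr11:54100674-54100923, chr7:100285270-100285519 and chr11:120573254-120573503. Capitals mark ACGTG, the core of hypoxia response elements, and CCAAT, on either strand.
P4ha1: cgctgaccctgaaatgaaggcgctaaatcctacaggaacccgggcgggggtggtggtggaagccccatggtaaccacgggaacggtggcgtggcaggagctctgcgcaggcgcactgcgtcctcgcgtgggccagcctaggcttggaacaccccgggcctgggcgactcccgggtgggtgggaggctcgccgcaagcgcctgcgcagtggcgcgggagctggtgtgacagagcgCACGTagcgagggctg
P4ha2: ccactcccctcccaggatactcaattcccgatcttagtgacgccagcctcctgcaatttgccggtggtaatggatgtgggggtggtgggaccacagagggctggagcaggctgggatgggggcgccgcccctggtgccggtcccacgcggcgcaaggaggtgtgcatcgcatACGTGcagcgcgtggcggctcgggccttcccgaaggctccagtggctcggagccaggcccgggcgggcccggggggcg
P4ha3: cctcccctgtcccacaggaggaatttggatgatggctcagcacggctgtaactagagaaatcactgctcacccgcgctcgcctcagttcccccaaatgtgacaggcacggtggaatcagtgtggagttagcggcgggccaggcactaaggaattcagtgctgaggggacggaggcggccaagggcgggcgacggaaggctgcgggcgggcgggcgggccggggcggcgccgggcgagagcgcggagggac
P4hb: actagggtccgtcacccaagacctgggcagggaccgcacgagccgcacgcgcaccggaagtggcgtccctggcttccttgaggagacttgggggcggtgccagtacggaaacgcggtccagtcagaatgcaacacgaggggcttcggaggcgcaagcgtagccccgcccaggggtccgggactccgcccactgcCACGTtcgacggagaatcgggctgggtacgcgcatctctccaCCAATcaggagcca

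*P4ha1*, *P4ha2* and *P4hb* each held 1 ACGTG in this stretch, and *P4ha3* held neither motif. Over whole entries of 300 bases, 21 members had 24 promoters, of which 10 held ACGTG, against 19.6% of 32851 promoters in the table. CCAAT was in 8 of the 24, against 37.4% of promoters. The E-box CACGTG, which contains ACGTG on each strand and is the classic binding sequence of MYC, was in 0 of the 24, against 7.15% of promoters. These are letter matches in a fixed window, and no binding was measured.

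The *c-Myc* comparison asks how *c-Myc* induction with intact p53 changes this machinery, and it was set beside the comparison of *c-Myc* + *R172H* with the same juvenile libraries. Of the 31 genes tested, 27 fell in *c-Myc* libraries, with 0 higher, at an adjusted p under 0.05 and at least a 2-fold difference. Over all 12588 genes tested, 16.0% were called lower and 18.4% higher, and the median log2 fold change was -1.93 for the members against 0.04 for all genes. In *c-Myc* + *R172H* libraries 27 of 31 fell and 0 were higher, against 17.9% lower and 19.6% higher of all genes, and the medians were -2.24 and 0.08. All 31 fold changes were negative in both comparisons, so that none was higher at an unadjusted p under 0.05 either, and DESeq2 also called 27 lower and 0 higher in each. The *c-Myc* libraries lay wholly below the juvenile ones in 28 members, against 28.7% of all genes tested. Of all genes, 35.7% lay wholly above. For *c-Myc* + *R172H* libraries 30 members lay wholly below, against 30.1% of all genes, and 36.6% of all genes lay wholly above. With scaling by library totals alone, the median of all genes moved to 0.87 and 1.12, 16 members were called lower in each comparison and 4 changed sign. All 31 still lay below the median of all genes under that scaling. Markers of several cell types moved the same way. All 12 chondrocyte markers fell in both comparisons, as did 7 of 9 osteoblast markers, a list that includes *Col1a1*, with medians of -1.93 and -2.70. Among marrow stromal markers 2 and 4 of 5 fell, among tendon and ligament markers 3 and 4 of 4 tested, and among osteoclast markers 1 and 2 of 3 tested. Other lists, at low levels, went the other way. The 1 endothelial marker tested, *Egfl7*, and 1 of 2 haematopoietic markers tested were called higher in both comparisons. The part of any marker list in the members' fall was not tested.

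Among the prolyl 4-hydroxylases, all 4 genes fell. *P4hb* had 1135, 1150, 1191 and 1152 CPM in juvenile, 477 and 449 CPM in *c-Myc* and 399 and 388 CPM in *c-Myc* + *R172H* libraries. The juvenile libraries were close to each other and the induced ones lay well below. On the log2 scale *P4hb* fell by 1.34 ± 0.08 (± SE from edgeR throughout, adjusted p = 4.91e-08) in *c-Myc* and by 1.55 ± 0.08 (adjusted p = 1.24e-08) in *c-Myc* + *R172H* libraries. The main alpha subunit gene *P4ha1* fell more, by 1.98 and 2.52 on the log2 scale. *P4ha3* had 37, 40, 56 and 22 counts in juvenile, 7 and 5 in *c-Myc* and 5 and 5 in *c-Myc* + *R172H* libraries. Its pooled CPM was 7.03% (exact 95% interval 3.55 to 12.6%, counting error only) and 5.51% (2.59 to 10.4%) of the juvenile level, the largest fall in the role, on few counts.

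The lysyl hydroxylases divided. *Plod1*, which acts on lysines of the helix, was at 152, 148, 184 and 158 CPM in juvenile, 36.0 and 37.2 in *c-Myc* and 22.2 and 24.3 in *c-Myc* + *R172H* libraries. Its log2 fold changes were -2.15 ± 0.12 (adjusted p = 3.46e-08) and -2.78 ± 0.12 (adjusted p = 5.49e-09). *Plod2*, which hydroxylates telopeptide lysines and so sets the kind of crosslink, was the most abundant of the role, at 387, 532, 474 and 410 CPM in juvenile, 101 and 111 in *c-Myc* and 82.1 and 82.9 in *c-Myc* + *R172H* libraries. It fell by 2.11 ± 0.13 (adjusted p = 8.74e-08) and 2.44 ± 0.13 (adjusted p = 2.19e-08) on the log2 scale. *Plod3*, which has glycosyltransferase as well as hydroxylase activity, was lower but under the 2-fold limit, at log2 fold changes of -0.66 ± 0.11 (adjusted p = 0.000249) and -0.95 ± 0.11 (adjusted p = 1.20e-05). *Plod3* shares 11.7% of its exon bases with *Znhit1* on the opposite strand, and the strand setting of the counting was not stated.

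All 6 genes of prolyl 3-hydroxylation fell, with a median log2 fold change of -1.44 in *c-Myc* and -1.66 in *c-Myc* + *R172H* libraries. Products of *P3h1*, *Crtap* and *Ppib* form the complex that 3-hydroxylates a single proline of the collagen I chain, and these 3 fell by nearly the same amount. *P3h1* was at 335, 371, 404 and 364 CPM in juvenile, 147 and 129 in *c-Myc* and 113 and 126 in *c-Myc* + *R172H* libraries. Its log2 fold change was -1.44 ± 0.10 (adjusted p = 2.72e-07) in *c-Myc*, beside -1.44 ± 0.11 for *Crtap* and -1.34 ± 0.10 for *Ppib*, and in *c-Myc* + *R172H* the values were -1.62 ± 0.11, -1.70 ± 0.11 and -1.53 ± 0.11. *Ppib* shares 25.0% of its exon bases with *Snx22* on the opposite strand. *P3h3* fell most in the role, from 155, 161, 162 and 167 CPM in juvenile to 38.1 and 42.4 CPM in *c-Myc* and 31.72 and 31.97 CPM in *c-Myc* + *R172H* libraries. The fold changes of *P3h3* were -2.02 ± 0.10 (adjusted p = 2.05e-08) and -2.33 ± 0.10 (adjusted p = 5.21e-09). Its product works with that of *P3h4* (SC65), which fell by 1.60 ± 0.15 and 1.81 ± 0.15. *P3h2* had the smallest fall and its *c-Myc* and juvenile values overlapped, 12.01 and 12.08 CPM against 11.3 to 31.7 CPM. It shares 28.4% of its exon bases with *Gm4524* on the opposite strand.

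*Serpinh1*, *Fkbp10* and *Fkbp14*, which chaperone procollagen or isomerize its prolines, all fell. *Serpinh1* was at 3015, 2940, 4640 and 3437 CPM in juvenile, 1410 and 1394 in *c-Myc* and 1021 and 1001 in *c-Myc* + *R172H* libraries. The juvenile values were spread more widely than the induced ones. All 4 lay above every induced value, a gap that was common over all genes, as given above. The log2 fold changes were -1.34 ± 0.16 (adjusted p = 1.36e-05) and -1.79 ± 0.16 (adjusted p = 1.27e-06). *Fkbp14* fell most in the role, from 76.7, 87.3, 94.3 and 82.9 CPM to 22.7 and 22.6 CPM in *c-Myc* and 17.1 and 18.8 CPM in *c-Myc* + *R172H* libraries. These are falls of 1.93 ± 0.12 (adjusted p = 1.17e-07) and 2.24 ± 0.13 (adjusted p = 2.71e-08) on the log2 scale. *Fkbp10*, the isomerase that works on telopeptide hydroxylation together with *Plod2*, fell by 1.25 ± 0.08 and 1.36 ± 0.08.

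The galactosyltransferases split furthest. *Colgalt2* (chromosome 1, 152399830-152510695, plus strand) had 275, 223, 160 and 63 counts in juvenile libraries but 9 and 1 in *c-Myc* and 3 and 2 in *c-Myc* + *R172H* libraries. It was thus near the detection limit in every induced library, at 1.26% (exact 95% interval 0.601 to 2.33%, counting error only) and 0.593% (0.192 to 1.39%) of the juvenile level. The fitted log2 fold changes were -6.27 ± 0.65 (adjusted p = 5.51e-06) and -7.26 ± 0.72 (adjusted p = 2.99e-06). The size in *c-Myc* rests on single libraries, which stood at 2.05% and 0.282% of the juvenile level, the second outside the interval above. Without *c-Myc* replicate 1 the log2 fold change was -8.23 and without replicate 2 it was -5.57. The chondrocyte markers had median log2 fold changes of -5.68 in *c-Myc* and -7.02 in *c-Myc* + *R172H* libraries. Among control libraries, *Colgalt2* and the summed chondrocyte markers were both highest in adult library 1 and lowest in juvenile library 4. The part of chondrocyte RNA in the fall of *Colgalt2* was not tested. *Colgalt1*, the broadly expressed enzyme, stood at 145, 137, 166 and 179 CPM in juvenile, 119 and 100 in *c-Myc* and 110 and 104 in *c-Myc* + *R172H* libraries. That difference was under 2-fold, at log2 fold changes of -0.54 ± 0.12 in both. *Colgalt1* shares 11.4% of its exon bases with *Unc13a* on the opposite strand.

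*Mia3* (TANGO1), which loads procollagen into carriers at ER exit sites, fell from 196, 201, 254 and 226 CPM to 86.3 and 99.1 CPM in *c-Myc* and 80.9 and 81.6 CPM in *c-Myc* + *R172H* libraries. Its log2 fold changes were -1.26 ± 0.12 (adjusted p = 2.39e-06) and -1.42 ± 0.12 (adjusted p = 7.63e-07). *Tmem38b*, which encodes the ER cation channel TRIC-B, was low in all groups and its values overlapped, with log2 fold changes of -0.07 ± 0.28 and -0.16 ± 0.28.

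In propeptide removal 5 of the 6 genes tested fell in both comparisons. *Bmp1*, the C-proteinase and the most abundant of the role, was at 1264, 1391, 1340 and 1403 CPM in juvenile, 325 and 364 in *c-Myc* and 241 and 280 in *c-Myc* + *R172H* libraries. The log2 fold changes were -1.99 ± 0.10 (adjusted p = 2.25e-08) and -2.36 ± 0.10 (adjusted p = 5.21e-09), and *Pcolce*, whose product enhances it, fell by 2.11 ± 0.09 and 2.42 ± 0.09. *Adamts2*, the main N-proteinase of collagen I (chromosome 11, 50602084-50807573, plus strand), was at 567, 631, 650 and 716 CPM in juvenile, 95.4 and 125 in *c-Myc* and 50.5 and 56.6 in *c-Myc* + *R172H* libraries. This was the largest fall in the role, by 2.56 ± 0.14 (adjusted p = 2.90e-08) and 3.57 ± 0.15 (adjusted p = 3.63e-09). Its paralog *Adamts14* was not called. *Adamts14* was at 33.8, 40.5, 52.3 and 41.6 CPM in juvenile, 34.89 and 35.05 in *c-Myc* and 29.4 and 31.1 in *c-Myc* + *R172H* libraries, with log2 fold changes of -0.28 ± 0.15 and -0.46 ± 0.16.

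The 5 lysyl oxidases all fell, with median log2 fold changes of -2.51 in *c-Myc* and -3.92 in *c-Myc* + *R172H* libraries. *Lox*, the most abundant, was at 1338, 1575, 1525 and 1498 CPM in juvenile, 183 and 240 in *c-Myc* and 82.6 and 95.7 in *c-Myc* + *R172H* libraries. All induced values lay far below the juvenile ones. The log2 fold changes were -2.83 ± 0.13 (adjusted p = 1.74e-08) and -4.05 ± 0.14 (adjusted p = 1.78e-09), which left 14.03% and 6.04% of the juvenile level. *Loxl3* fell most in *c-Myc* libraries, from 96.6, 101, 142 and 86.7 CPM to 12.7 and 14.8 CPM, which gave -2.98 ± 0.21 on the log2 scale (adjusted p = 2.14e-07). In *c-Myc* + *R172H* libraries it was at 6.13 and 7.84 CPM. *Loxl3* shares 11.6% of its exon bases with *Htra2* on the opposite strand. The log2 fold changes of *Loxl1*, *Loxl2* and *Loxl4* were -2.15 ± 0.17, -2.51 ± 0.13 and -2.26 ± 0.16 in *c-Myc* and -2.68 ± 0.17, -3.98 ± 0.14 and -2.81 ± 0.17 in *c-Myc* + *R172H* libraries.

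**Figure D2:**
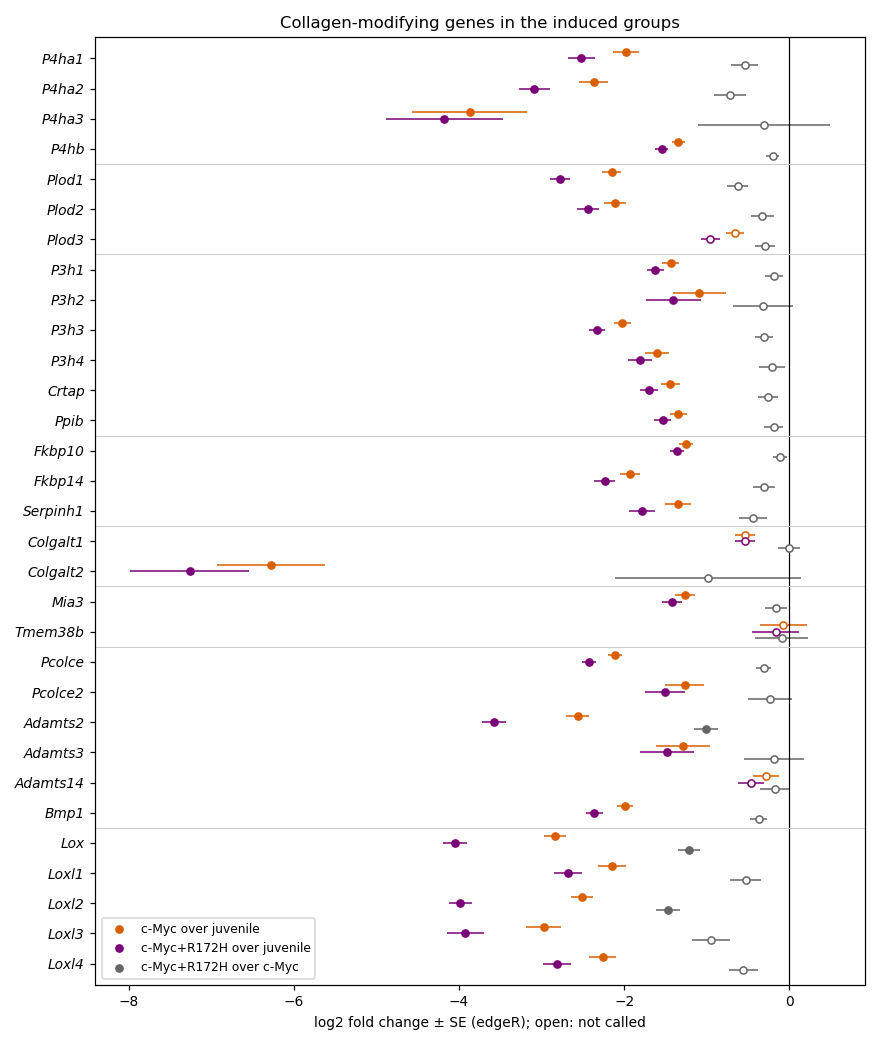
Points are log2 fold changes with SE from edgeR for the 31 tested genes, in the order of the roles; filled points were called and open points were not. All points of the 3 comparisons lie at or left of 0, from -7.26 for *Colgalt2* to -0.002 for *Colgalt1*.

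The substrate fell as well. *Col1a1* was lower by 2.68 ± 0.18 in *c-Myc* and 3.74 ± 0.20 in *c-Myc* + *R172H* libraries on the log2 scale, and *Col1a2*, which is not the transgene locus, by 2.61 ± 0.18 and 3.51 ± 0.19. All 11 fibrillar collagen genes tested fell in both comparisons, and the largest log2 fold changes were those of *Col2a1* (-5.46 and -6.94), *Col27a1* (-4.56 and -5.51), *Col3a1* (-3.19 and -4.91) and *Col11a1* (-3.08 and -4.62). Of 26 further genes of ER folding and collagen secretion, 8 fell in *c-Myc* libraries, with a median of -0.34. The largest log2 fold changes were those of the KDEL receptor genes *Kdelr2* (-1.60 ± 0.09) and *Kdelr3* (-1.57 ± 0.12), the ER-stress transcription factor gene *Creb3l1* (-1.54 ± 0.09) and the COPII coat gene *Sec24d* (-1.48 ± 0.09). In *c-Myc* + *R172H* libraries 9 of the 26 fell and 1, *Klhl12* (1.06 ± 0.30), rose, with a median of -0.42. Of 17 tested cofactor and matrix partner genes, 12 fell and 1 rose in each comparison. In *c-Myc* libraries the largest log2 fold changes were those of *Aspn* (-4.71 ± 1.26), *Dcn* (-2.89 ± 0.22), *Serpinf1* (-2.73 ± 0.14) and *Sparc* (-2.68 ± 0.14). The gene that rose was *Pepd* (1.26 ± 0.20, adjusted p = 0.000169 in *c-Myc* and 1.19 ± 0.20, adjusted p = 0.000244 in *c-Myc* + *R172H* libraries), which encodes prolidase, the enzyme that splits proline-ending dipeptides from collagen breakdown.

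Because collagen I and its machinery both fell, each role's counts were divided by the *Col1a1* and *Col1a2* counts of the same library, a ratio that needs no scaling between libraries. Per 1000 collagen I counts, the 32 genes together had 16.2 to 22.5 counts in juvenile, 44.2 and 33.8 in *c-Myc* and 59.9 and 59.0 in *c-Myc* + *R172H* libraries. These ratios were 1.99 and 3.03 times the juvenile mean, and no induced library overlapped with the juvenile ones. The roles differed. Chaperones and isomerases rose from 5.46 to 7.35 in juvenile to 19.1 and 14.2 in *c-Myc* and 26.0 and 24.9 in *c-Myc* + *R172H* libraries, 2.54 and 3.89 times the juvenile mean. Prolyl 4-hydroxylases stood at 2.20 and 3.58 times, and propeptide removal at 1.504 and 2.23 times. For lysyl oxidases the ratio was 2.41 to 3.35 in juvenile, 2.91 and 2.76 in *c-Myc* and 2.62 and 2.86 in *c-Myc* + *R172H* libraries, and every induced value lay inside the juvenile range, at 0.95 and 0.92 times the mean. Within the last role, *Lox* and *Loxl3* were at 0.87 and 0.80 times the juvenile ratio in *c-Myc* libraries and *Loxl1* and *Loxl4* at 1.39 and 1.29 times. A higher ratio to collagen I than in juvenile libraries was common to most genes. In *c-Myc* it was seen for 96.9% of the 12488 tested genes with juvenile counts, with a median of 6.42 times, and in *c-Myc* + *R172H* for 97.5%, with a median of 12.9 times. Of the 31 tested members, 27 had a higher ratio in *c-Myc*, with a median of 1.66 times, and 26 in *c-Myc* + *R172H*, with a median of 2.64 times. The 4 that did not in *c-Myc* were *P4ha3*, *Colgalt2*, *Lox* and *Loxl3*. *Adamts2* kept close to collagen I, at 1.06 and 1.05 times. These ratios are descriptions without a test.

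**Figure D3:**
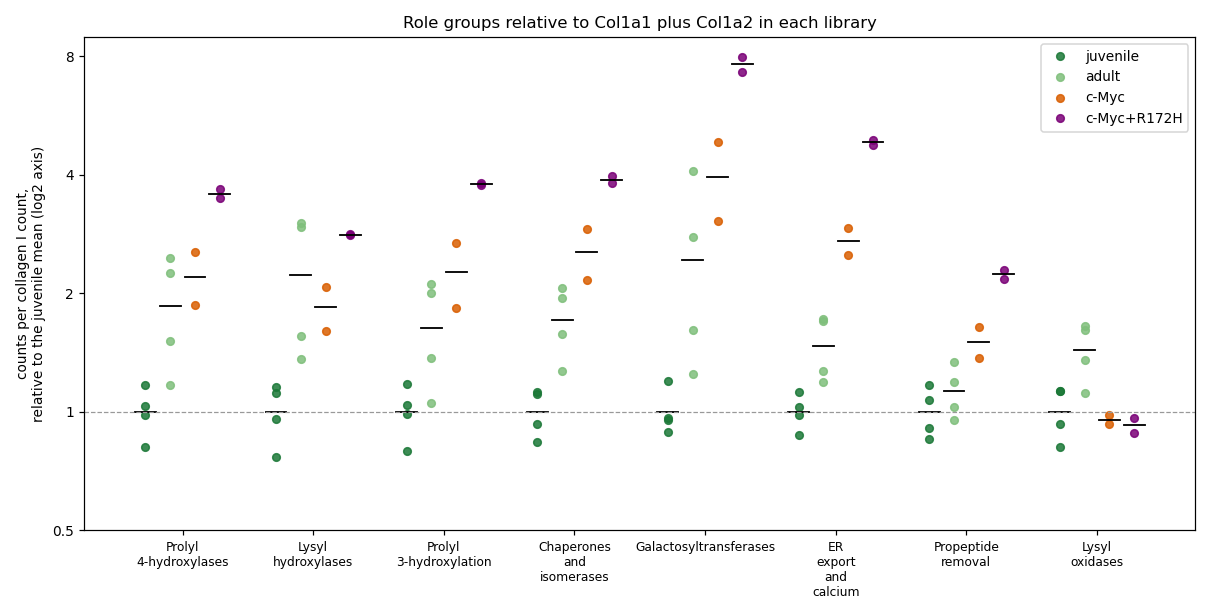
Each point is a library: the summed counts of a role divided by its *Col1a1* plus *Col1a2* counts, relative to the juvenile mean (dashed line at 1, log2 axis), with black lines at group means. The induced libraries sit above the juvenile range in every role except the lysyl oxidases, where they are at 0.95 and 0.92 on average.

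The comparison of *c-Myc* + *R172H* with *c-Myc* asks what mutant p53 adds. Of 31 members, 3 fell and 0 were higher at an adjusted p under 0.05, against 0.461% lower and 0.00794% higher of the 12588 genes tested. All 31 fold changes were negative, with a median of -0.31 against -0.003 for all genes, and 17 had an unadjusted p under 0.05, all lower. Over all 12588 genes tested, 589 had an unadjusted p under 0.05 in either direction. DESeq2 called 8 lower and 0 higher. With library totals, where the median of all genes was 0.21, 10 members turned positive and 2 were called, and with upper-quartile scaling 1 turned positive. Each group has 2 libraries. Summed chondrocyte markers were 355 to 571 CPM in *c-Myc* and 166 to 173 CPM in *c-Myc* + *R172H* libraries, and their part in the result was not tested.

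Of the 3, 2 were lysyl oxidases. *Loxl2* (chromosome 14, 69609068-69695834, plus strand), which also crosslinks collagen IV, was at 126, 148, 157 and 143 CPM in juvenile, 25.21 and 25.75 in *c-Myc* and 10.1 and 7.94 in *c-Myc* + *R172H* libraries. The groups did not overlap, and its log2 fold change of *c-Myc* + *R172H* over *c-Myc* was -1.47 ± 0.14 (adjusted p = 0.00131). With 2 libraries in each group, such a gap was common. Over all genes tested, *c-Myc* + *R172H* libraries lay wholly below *c-Myc* ones in 27.5% and wholly above in 17.5%. Among the 31 members 28 lay below. *Lox* fell by 1.21 ± 0.14 (adjusted p = 0.00187), from 183 and 240 CPM to 82.6 and 95.7 CPM. That call was lost when all 12 libraries were in the fit (adjusted p = 0.107). *Adamts2* fell by 1.01 ± 0.14 (adjusted p = 0.00974), from 95.4 and 125 CPM to 50.5 and 56.6 CPM. Its call was lost without *c-Myc* replicate 2 (adjusted p = 0.118), *c-Myc* + *R172H* replicate 1 (0.126) or replicate 2 (0.05925), and with library totals (0.0835) or all 12 libraries in the fit (0.184). *Loxl3* had a log2 fold change of -0.95 ± 0.23 and was not called (adjusted p = 0.132). The number of members called ranged from 1 with all 12 libraries to 14 in a fit of the 4 induced libraries alone. Without juvenile replicate 3 the count was 7.

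In the same comparison 5 of 11 fibrillar collagen genes fell, with the largest log2 fold changes in *Col3a1* (-1.71 ± 0.24), *Col11a1* (-1.54 ± 0.13), *Col5a3* (-1.35 ± 0.16) and *Col1a1* (-1.05 ± 0.19). *Dcn* (-1.62 ± 0.23) and *Sparc* (-0.87 ± 0.14) were the 2 of 17 cofactor and partner genes that fell. In ER folding and secretion 0 of 26 genes were called by edgeR, and the median was -0.14. An unadjusted p under 0.05 was found for 3 of the 26, against 589 of all 12588 genes tested. DESeq2 counts were made for the members and all genes, not for this list.

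The age comparison asks whether juvenile and adult osteoblasts differ in the machinery. Of 31 genes tested, 4 were higher and 3 lower in juvenile than in adult libraries, against 1.89% higher and 3.23% lower of 11345 genes, and the median log2 fold change was -0.17 against 0.001. The 4 higher genes act on propeptides or as an isomerase, and the 3 lower ones are a lysyl hydroxylase and 2 lysyl oxidases. Of the 7 calls, 5 were lost when single libraries were left out.

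*Bmp1* was at 703, 1045, 1031 and 826 CPM in adult libraries against 1264 to 1403 CPM in juvenile ones, which gave 0.58 ± 0.14 on the log2 scale (adjusted p = 0.0264). *Pcolce* was at 489, 779, 765 and 606 CPM in adult against 934 to 1029 CPM in juvenile libraries, 0.55 ± 0.15 (adjusted p = 0.0365). The N-proteinase gene *Adamts14* was at 28.8, 22.2, 24.2 and 20.4 CPM in adult and 33.8 to 52.3 CPM in juvenile libraries, 0.80 ± 0.17 (adjusted p = 0.0105). For each of these 3 genes of propeptide removal every juvenile library was above every adult one. This order was seen in 5 of the 31 members and in 6.17% of all 11345 genes tested. *Fkbp10* was at 679, 693, 811 and 676 CPM in adult and 971 to 1035 CPM in juvenile libraries, 0.48 ± 0.12 (adjusted p = 0.0271). It lies 860 bases from *P3h4*, on the opposite strand of chromosome 11, and *P3h4* had a log2 fold change of -0.09 ± 0.13.

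*Loxl2* went the other way, at 333, 173, 241 and 264 CPM in adult and 126 to 157 CPM in juvenile libraries, which gave -0.83 ± 0.16 on the log2 scale (adjusted p = 0.00762). *Loxl1*, which works on elastic fibres, was at 86.4, 108, 73.4 and 73.8 CPM in adult and 51.0 to 69.05 CPM in juvenile libraries, -0.52 ± 0.14 (adjusted p = 0.0440). *Plod3* was at 204, 127, 169 and 185 CPM in adult and 99.0 to 124 CPM in juvenile libraries, -0.61 ± 0.14 (adjusted p = 0.0173). Every adult library was above every juvenile one for these 3 genes, an order seen in 6 of the 31 members and in 6.75% of all genes tested. *Lox* itself was not called, at 0.47 ± 0.19 (adjusted p = 0.175), since adult libraries 2 and 3, at 1366 and 1379 CPM, were within the juvenile range of 1338 to 1575 CPM and adult libraries 1 and 4, at 711 and 815 CPM, were far below it.

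The same 2 adult libraries differed from the other two in their markers. Their summed chondrocyte markers were the highest of the adult group, 129934 and 77570 CPM against 35431 and 57052 CPM in adult libraries 2 and 3. Their summed osteoblast markers, of which *Col1a1* makes up most, were the lowest, 238682 and 229321 CPM against 413024 and 379670 CPM. In 8 members adult libraries 1 and 4 were both above adult libraries 2 and 3, namely *P4ha2*, *Plod2*, *Plod3*, *P3h2*, *Colgalt2*, *Pcolce2*, *Loxl2* and *Loxl3*. In 10 members they were both below, among them *Lox*, *Adamts2*, *Bmp1*, *Pcolce* and *Serpinh1*. Over all 11345 genes tested, 21.6% showed the first order and 21.6% the second. *P3h2*, *Colgalt2* and *Pcolce2* had the largest differences between the ages, at log2 fold changes of -1.71 ± 0.45, -1.75 ± 0.50 and -1.38 ± 0.47, and none was called (adjusted p = 0.0839, 0.1004 and 0.163). *Colgalt2* was at 114, 36.2, 41.7 and 69.3 CPM in adult and 25.1, 23.0, 22.3 and 7.83 CPM in juvenile libraries, with the low juvenile value in library 4, which also had the lowest chondrocyte marker sum. The part of chondrocyte or osteoblast markers in the age differences was not tested. Without adult libraries 1 and 4, an alternative chosen after seeing the data, 1 member was called higher and 0 lower. The one left was *Adamts14*, and *Loxl2* then had a log2 fold change of -0.53 (adjusted p = 0.0553).

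**Figure D4:**
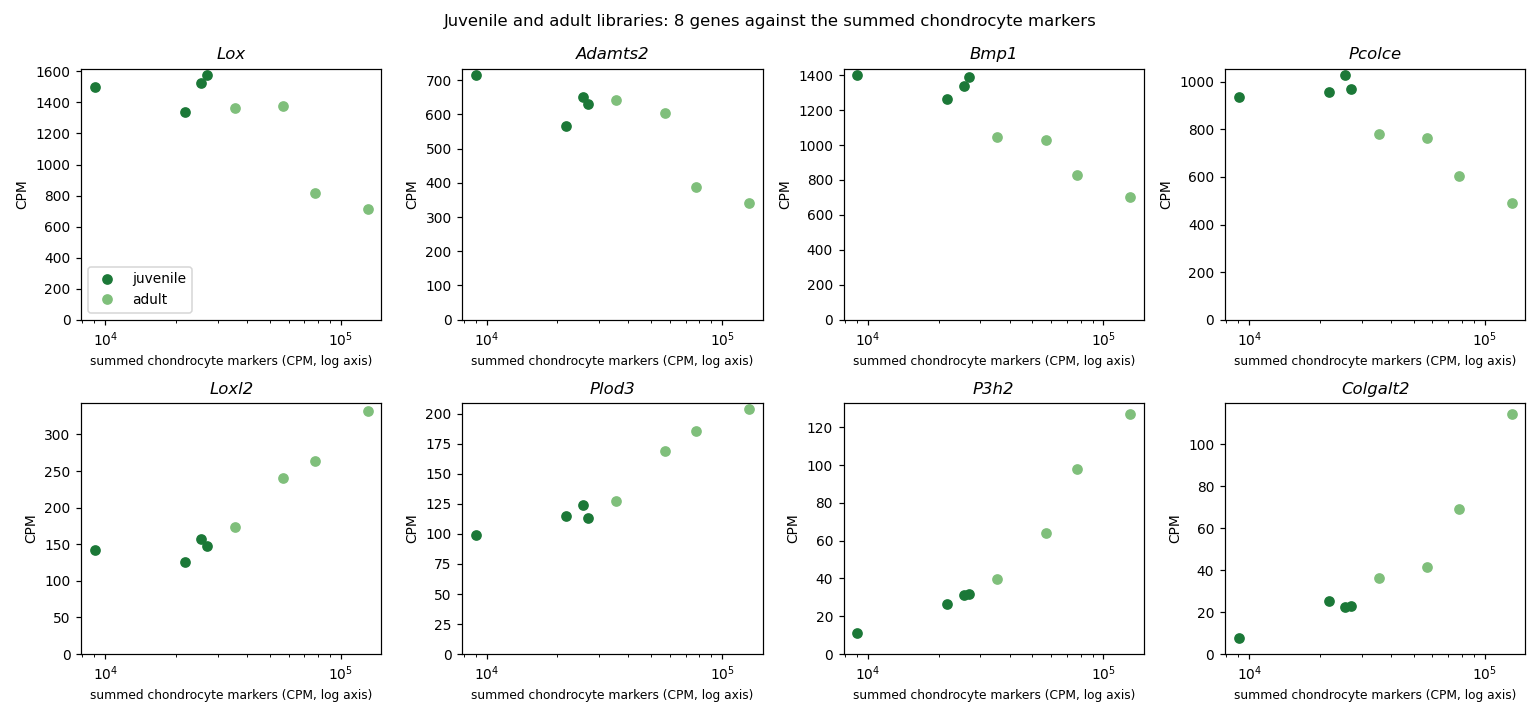
Each point is a juvenile or adult library: the CPM of a gene (linear axis from 0) against the summed CPM of 12 chondrocyte markers (log axis). *Lox*, *Adamts2*, *Bmp1* and *Pcolce* are lowest and *Loxl2*, *Plod3*, *P3h2* and *Colgalt2* highest in adult libraries 1 and 4, whose marker sums are 129934 and 77570 CPM.

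*Adamts14* and *Loxl2* kept their calls when any single library was left out. *Plod3*, *Fkbp10*, *Pcolce*, *Bmp1* and *Loxl1* each lost theirs without juvenile library 1, juvenile library 2, juvenile library 4, adult library 1 or adult library 4, and all of these but *Plod3* also without juvenile library 3. *Loxl1* lost its call without adult library 2 as well. The adjusted p of these lost calls ran from 0.0507 to 0.119. With library totals, where the median of all genes moved to -0.24, 0 members were higher and 10 lower.

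Of the pathway lists, 6 of 25 genes of ER folding and secretion were lower in juvenile libraries and none was called higher by edgeR, with the largest differences in *Pdia6* (-0.86 ± 0.16), *Calr* (-0.74 ± 0.14), *Canx* (-0.64 ± 0.12) and *Creld2* (-0.61 ± 0.16). Among fibrillar collagens only *Col2a1*, the cartilage collagen gene, was called, at -1.92 ± 0.43. Of 18 cofactor and partner genes tested, *Fmod* (-1.73 ± 0.34), *Fbln5* (-1.08 ± 0.19) and *Fn1* (-0.69 ± 0.19) were lower and the osteoblast membrane protein gene *Ifitm5* (0.87 ± 0.17) was higher in juvenile libraries. Per 1000 collagen I counts, the members together had 22.5 to 37.7 counts in adult libraries, and the juvenile mean was 0.63 times the adult mean. The juvenile ratio was the lower one for 94.6% of the 11345 genes tested, with a median of 0.63 times, and for 30 of the 31 members. *Adamts14*, at 1.07 times, was the other member.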

How the data were processed

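The authors deposited raw counts per gene for 12 libraries, made by HTSeq 2.0.5 from STAR 2.7.11a alignments (build mm10) of reads trimmed by cutadapt 4.6, per the submitters' processing notes and the paper's methods. The strand setting of the counting is not given in the sources used here. Groups were read from titles; 0 columns were left unused. Members and lists were chosen with earlier results of these data known.

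Counts were tested in R 4.3.3 with edgeR 4.0.16 (TMM, default expression filter, robust quasi-likelihood F test, Benjamini-Hochberg over all genes tested). Age used 8 libraries, and the other comparisons shared a fit of 8 libraries. A call needed an adjusted p under 0.05 and, for induced groups against juvenile libraries, a change of 1 or more on the log2 scale in either direction. SEs are approximate, the size of the log2 change over the root of F. CPM use TMM factors over 12 libraries; exon lengths and positions are from GENCODE on GRCm38 (mm10), in a release other than the one counted. Counts of replicates differed by more than sampling noise (chi-square per degree of freedom 5.45 to 136). Nothing states that the 2 libraries of an induced group came from separate mice, so p-values may measure technical spread. No molecular identifiers are named in the sources used here, and intervals cover counting error only.

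Members were named with library values where called and largest or most abundant in their role, and wherever called in the age or R172H comparison; *Plod3*, *Colgalt1*, *Adamts14*, *Tmem38b*, *P3h2*, *Pcolce2*, *Pepd* and *Klhl12*, and the members set beside a named one, were added after their values were seen. Alternatives were RLE, upper-quartile and library-total scaling, scaling without 3 dominant genes, other filters, DESeq2 1.42.0, other libraries in the fit, a replicate block and each library left out in turn. The tests were checked on simulated data.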

Additional observations from a re-analysis of the deposited data

Results flagged for a closer look

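In groups of 4 libraries, the gap of the highest or lowest library to its neighbour was set against the range of the group, with the 95% critical value of Dixon's test as the limit. Of 64 groups checked, 3 passed it, and chance alone gives about 1 in 20. *Fkbp10* in adult library 3 was at 811 CPM against 676 to 693 CPM in the other adult libraries, a ratio of gap to range of 0.876. *Crtap* in juvenile library 3 was at 239 CPM against 192 to 198 CPM, a ratio of 0.874. *Colgalt2* in juvenile library 4 was at 7.83 CPM against 22.3 to 25.1 CPM, a ratio of 0.834.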

How the results depend on the processing

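The members' fall in both induced groups kept its direction and count within 1.5 times under each alternative but library totals, which gave 16 members lower for *c-Myc* and 16 for *c-Myc* + *R172H*, with 5234 and 6264 of all genes higher and 700 and 868 lower. In that setting *P4hb*, *P3h1*, *Serpinh1* and *Mia3* were under the 2-fold limit in both comparisons. With 1 library left out, members lower ranged from 25 to 27 and from 27 to 28. The ratios to collagen I moved by less than the spread between libraries with *Col1a1* alone or all fibrillar collagens as the denominator and with each library left out.

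For age, library totals gave 0 members higher and 10 lower (53 and 793 of all genes), DESeq2 7 members and 616 genes lower, all 12 libraries in the fit 7 members lower (461 genes higher, 633 lower), and no filter 399 genes higher and 578 lower. With 1 library left out, 1 to 4 members were higher and 1 to 5 lower (85 to 344 and 199 to 541 genes). Without adult libraries 1 and 4, 1 member was higher and 0 lower (77 and 145 genes).

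For *R172H*, members lower were 9 with no filter, 8 with DESeq2, 1 with all 12 libraries and 14 with the 2 groups alone. Genes higher and lower were 14 and 208, 6 and 195, 0 and 22, and 189 and 440 in these settings, and 11 genes were lower with library totals. With 1 library left out, 2 to 7 members were lower, with 0 to 3 genes higher and 7 to 84 lower.

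The replicate numbers were not taken to pair the libraries. Same-numbered deviations correlated from -0.05 to 0.04 in the age comparison. They correlated at 0.14 in the 2 pairs of *c-Myc* and *c-Myc* + *R172H*. With 2 libraries per group both pairs must give the same value, so it cannot decide on pairing. With a replicate block, 3 members were higher and 2 lower for age, 26 were lower in each induced group, and for *R172H* 11 members were lower, with 30 genes higher and 296 lower. The causes of these shifts were not tested. *P4ha3*, *Colgalt2* and *Tll1* are limited by counts of 0 to 9 per induced library.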
